A study of Mus musculus with 8 samples.

Results

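Schwann cells and satellite glia are the supporting cells of peripheral nerves and ganglia, and 9 genes used as their markers or regulators are described here in bone metastases and matched primary tumours of the 4T1.2 mouse mammary carcinoma. The members were all probe sets whose single gene symbol in the platform annotation was S100b, Sox10, L1cam, Ngfr, Cdh19, Egr2, Fabp7, Gfap or Gjc3, which gave 19 of the 34945 probe sets with a single symbol, or 9 of 18193 genes. The metastasis group held 4 arrays of spine metastases that arose spontaneously in Balb/c mice carrying the tumour, and the primary group held 4 arrays of mammary gland tumours from the same 4 mice. The labels describe the material as isolated tumour epithelial cells, whose total RNA was amplified in 2 cycles of labelling. All mice carried the same tumour line, the labels give no agent and no allele, and neither the sort or gate nor the age of the mice is given in the sources used here.

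Schwann cells wrap axons and make the myelin of peripheral nerve, and satellite glia surround the cell bodies of neurons in sensory and autonomic ganglia. Both arise from the neural crest under the transcription factor Sox10, and myelinating Schwann cells then switch on Egr2 (Krox20), which drives the myelin genes. Immature and repair Schwann cells instead carry Ngfr, L1cam and Gfap at higher levels. Ganglia and nerve roots lie beside the vertebrae, and fine nerves enter the marrow and periosteum. Several of these genes also have other sources: L1cam and Ngfr are made by neurons, S100b by chondrocytes and adipocytes, Sox10 by melanocytes and mammary epithelium, Egr2 by activated macrophages and lymphocytes, and Gfap, Fabp7 and S100b by astrocytes.

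The 9 genes did not move as a block. S100b, L1cam, Ngfr and Cdh19 had at least 1 probe set that was higher in bone metastasis, Egr2 was lower on both of its probe sets, and Sox10, Fabp7, Gfap and Gjc3 had none past the threshold. The largest difference was that of S100b, 11.7-fold on the probe set that lay above the array median in both groups. Its other probe set gave 26.0-fold, against primary signals that all lay under the array median, so that this fold is not exact. In limma, with Benjamini-Hochberg adjustment over 34945 probe sets and a threshold of 0.05, 7 of the 19 probe sets passed, where 20.6% of all probe sets did. Of these, 5 were higher (26.3%, against 8.72% of all probe sets) and 2 were lower (10.5%, against 11.9% of all probe sets). The groups did not overlap on 9 of the 19, with metastases higher on 7 (36.8%, against 14.3% of all probe sets) and lower on 2 (against 14.0% of all probe sets). By gene, 4 of 9 had a probe set that was higher (44.4%, against 14.0% of all genes) and 1 of 9 had one that was lower (11.1%, against 18.3% of all genes). The share of lower members was thus near the background. The median log2 difference over the 19 probe sets was 0.36, beside 0.09 over all probe sets. Each array holds the RNA of a whole isolate, in which fewer cells of a type and less RNA per cell cannot be told apart.

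**Figure D1:**
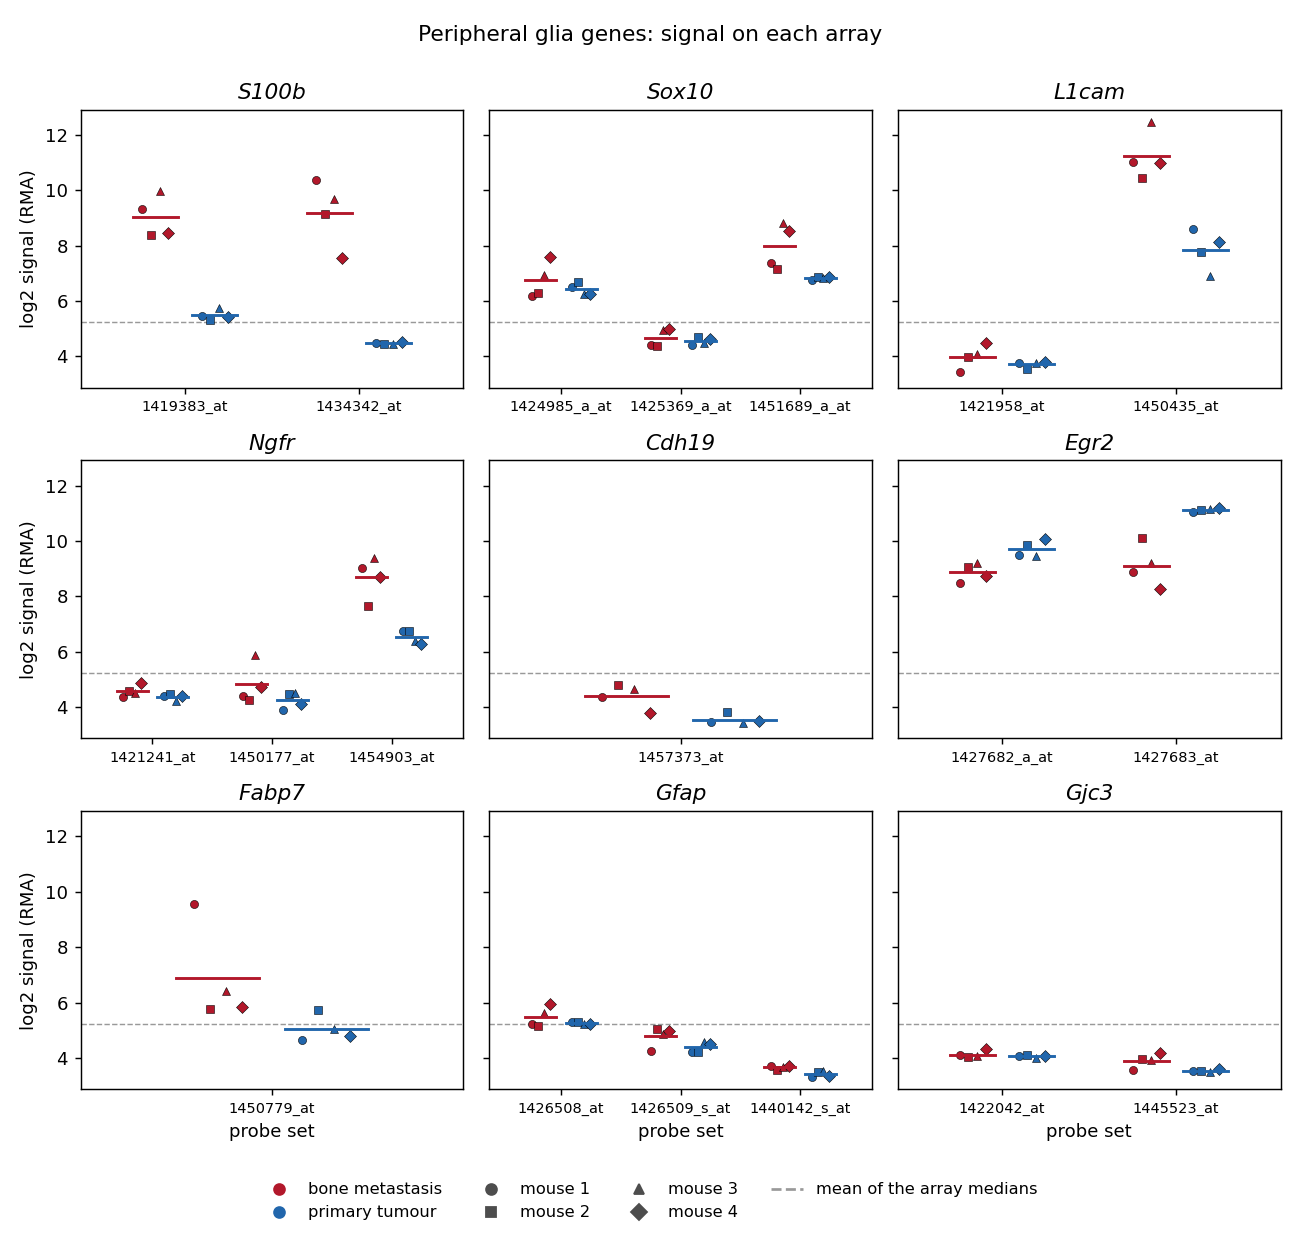
Log2 signal (RMA) of each probe set of the 9 genes on the 8 arrays. Red points are bone metastases and blue points primary tumours, marker shapes stand for the 4 mice, short bars are group means and the dashed line is the mean of the array medians. S100b, L1cam 1450435_at and Ngfr 1454903_at lie apart between the groups, whereas the probe sets of Gjc3 and most of Gfap lie under the dashed line in both.

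Signals are log2 values from the authors' RMA processing, and arrays carry no read depth, so that their number limits the precision. Array medians ran from 5.23 to 5.42 in metastases and from 5.16 to 5.17 in primary tumours, and 8 of the 19 member probe sets lay under their array's median on every array, where a fold is not exact. The 3' to 5' drop of the RNA controls, a measure of RNA integrity and amplification length together, differed between the groups. The 5' probe set of the actin control lay below its 3' probe set by 5.33 ± 0.76 in metastases and 1.49 ± 0.44 in primary tumours (log2, SD, n = 4 each, exact permutation p = 0.0286, the smallest such p, adjusted p = 0.0286 over 2 controls). For Gapdh this drop was 5.22 ± 0.71 in metastases and 2.15 ± 0.48 in primary tumours (log2, SD, n = 4 each, exact permutation p = 0.0286, adjusted p = 0.0286). These permutations did not use the pairing of the tumours by mouse. RNA integrity and amplification length cannot be told apart here, and the part of this difference in the control drop in the results below was not tested. Of the epithelial markers, Krt19 and Cldn4 were lower and the other 8 of 10 did not pass the threshold, with a list median of -1.05. Krt8 had 7.34, 12.39, 9.80 and 12.97 in the metastases of mice 1 to 4, against 13.07 to 13.32 in primary tumours. Krt18 had 6.05, 10.95, 8.49 and 11.86, against 11.37 to 11.95. Both were lowest in the metastases of mice 1 and 3, and neither passed (limma adjusted p = 0.131 and 0.181). Cdh1 went the other way, at 0.43 (limma adjusted p = 0.528). The mean log2 signal of that list ran from 6.10 to 7.82 on metastasis arrays and from 7.94 to 8.66 on primary arrays.

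S100b encodes a calcium-binding protein of the EF-hand family that is abundant in Schwann cells, satellite glia and astrocytes. On probe set 1434342_at its log2 signals were 10.36, 9.15, 9.67 and 7.54 in the metastases of mice 1 to 4, against 4.49, 4.43, 4.45 and 4.53 in their primary tumours. All 4 primary arrays were nearly equal and under the array median, whereas the metastases spread widely, with that of mouse 4 lowest. The difference was 4.70 (SE 0.51, limma adjusted p = 0.00114). On probe set 1419383_at S100b had 9.32, 8.37, 9.99 and 8.47 in the metastases, against 5.44, 5.32, 5.73 and 5.43 in the primary tumours. The groups lay far apart there too, with a difference of 3.55 (SE 0.35, limma adjusted p = 0.00080). Both probe sets had the gene higher in 4 of 4 mice. They ordered the metastases differently, with mouse 1 highest on 1434342_at and mouse 3 highest on 1419383_at.

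L1cam and Ngfr are surface proteins that nerve cells and their glia share. L1cam is an immunoglobulin-type adhesion molecule of axons and unmyelinating Schwann cells, and Ngfr is the p75 receptor of neurotrophins. On probe set 1450435_at L1cam had log2 signals of 11.01, 10.43, 12.45 and 10.99 in metastases, against 8.59, 7.77, 6.89 and 8.15 in primary tumours. The lowest metastasis lay above the highest primary tumour, and mouse 3 held both the highest metastasis and the lowest primary tumour. The difference was 3.37 (SE 0.48, limma adjusted p = 0.00289), or 10.4-fold, and L1cam was well above the array median in primary tumours as well. On its other probe set, 1421958_at, all arrays lay under the array median, with a difference of 0.27 (SE 0.21, limma adjusted p = 0.388).

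Ngfr had log2 signals of 9.02, 7.66, 9.38 and 8.71 in metastases on probe set 1454903_at, against 6.76, 6.75, 6.40 and 6.28 in primary tumours. The groups did not overlap, and the metastasis of mouse 2 was the closest to the primary tumours. The difference was 2.14 (SE 0.34, limma adjusted p = 0.00456), a 4.42-fold rise. Its probe sets 1450177_at and 1421241_at had differences of 0.57 (SE 0.35, limma adjusted p = 0.275) and 0.21 (SE 0.15, limma adjusted p = 0.338). On these the groups overlapped, and every value lay under the array median except 5.88 on 1450177_at in the metastasis of mouse 3.

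Cdh19 is a cadherin of the neural crest lineage that marks Schwann cell precursors and satellite glia. On its single probe set, 1457373_at, log2 signals were 4.37, 4.79, 4.66 and 3.80 in metastases, against 3.47, 3.81, 3.42 and 3.49 in primary tumours. All 8 values lay under the array median, and the metastasis of mouse 4 fell just below the primary tumour of mouse 2, so that the groups overlapped. The difference was 0.86 (SE 0.22, limma adjusted p = 0.0294). The call did not hold after quantile normalization (0.73, limma adjusted p = 0.0682), without mouse 1, 2 or 3 (0.85, 0.82 and 0.73, limma adjusted p = 0.0953, 0.0684 and 0.176), without the metastasis of mouse 2 or 3 (0.73 and 0.77, limma adjusted p = 0.0517 and 0.0728), or without the primary tumour of mouse 1, 3 or 4 (0.83, 0.82 and 0.84, limma adjusted p = 0.073, 0.0854 and 0.084).

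The RefSeq promoter windows of S100b, L1cam and Ngfr, the genes with the largest rises, and of Egr2, the gene that fell, are printed here, each 250 bases before to 50 bases after a start site on build GRCm38.p6, read 5′ to 3′ on the gene's strand. Capitals mark a GC box (GGGCGG, or CCGCCC where it is on the opposite strand) or a CArG box, the site of serum response factor. The window table held 7 of the 9 genes with 12 windows. L1cam had 2 windows and Egr2 had 5, of which 1 each is printed, and the arrays do not tell which start site is used.
S100b chr10:76253586-76253885 (+): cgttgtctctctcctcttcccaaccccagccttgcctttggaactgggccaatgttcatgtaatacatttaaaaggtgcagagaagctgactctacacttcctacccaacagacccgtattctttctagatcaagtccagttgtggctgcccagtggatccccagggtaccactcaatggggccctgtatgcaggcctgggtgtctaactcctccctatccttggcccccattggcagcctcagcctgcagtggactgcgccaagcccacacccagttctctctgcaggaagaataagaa
L1cam chrX:73880741-73881040 (-): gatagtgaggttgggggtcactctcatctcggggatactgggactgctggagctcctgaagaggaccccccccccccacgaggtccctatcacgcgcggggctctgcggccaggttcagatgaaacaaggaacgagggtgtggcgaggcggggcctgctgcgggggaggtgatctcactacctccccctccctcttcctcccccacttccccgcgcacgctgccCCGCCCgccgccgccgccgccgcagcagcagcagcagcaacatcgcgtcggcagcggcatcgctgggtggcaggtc
Ngfr chr11:95587649-95587948 (-): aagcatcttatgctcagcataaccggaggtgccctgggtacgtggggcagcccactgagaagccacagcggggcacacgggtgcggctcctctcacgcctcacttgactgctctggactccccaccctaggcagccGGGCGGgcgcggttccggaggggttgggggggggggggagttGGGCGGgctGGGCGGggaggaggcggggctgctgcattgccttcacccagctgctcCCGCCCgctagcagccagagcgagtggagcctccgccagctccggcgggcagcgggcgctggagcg
Egr2 chr10:67537619-67537918 (+): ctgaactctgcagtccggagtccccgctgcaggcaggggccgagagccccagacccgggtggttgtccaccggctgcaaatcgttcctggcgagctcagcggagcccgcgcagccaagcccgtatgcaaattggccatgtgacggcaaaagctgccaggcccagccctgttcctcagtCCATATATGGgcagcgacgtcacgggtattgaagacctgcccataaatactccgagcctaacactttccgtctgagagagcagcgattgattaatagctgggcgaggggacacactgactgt
Both of these motifs were added after the windows had been read. A GC box was found in the printed windows of Ngfr (4 matches) and L1cam (1 match), in the other window of L1cam (2 matches) and in 2 Egr2 windows that are not printed (4 matches and 1 match), and in 35.7% of 32851 windows of all genes on either strand. The CArG box CCATATATGG of the Egr2 window began 72 bases before the start site. A CArG box was in 4 of the 5 Egr2 windows, 1 of which also held a GC box, and a CArG box of any sequence was in 1.63% of all windows. The Egr2 windows that start at 67537619, 67537620 and 67537680 overlap and hold the same CCATATATGG site. The windows of L1cam likewise overlap and share a GC box. Counts over such windows are therefore not independent. Neither motif was in the S100b window. The SOX motif, searched as ACAAAG or ACAATG on both strands, was in the windows of 0 of the 7 genes and in 28.6% of all windows. The EGR motif, searched as GCGTGGGCG or GCGGGGGCG on both strands, was likewise in 0 of the 7 genes and in 3.47% of all windows. The absence of these letters concerns these windows only.

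Sox10 and Egr2, the transcription factors among the 9 genes, were not called higher with the surface genes. Sox10 had log2 signals of 7.39, 7.17, 8.83 and 8.52 in metastases on its brightest probe set, 1451689_a_at, against 6.76, 6.87, 6.82 and 6.86 in primary tumours. The groups did not overlap, with the metastases of mice 3 and 4 well above those of mice 1 and 2. The difference of 1.15 (SE 0.36, limma adjusted p = 0.0544) did not pass the threshold. It passed without the metastasis of mouse 1 or mouse 2 (1.35 and 1.42, limma adjusted p = 0.0351 and 0.0177) and without both arrays of mouse 2 (1.43, limma adjusted p = 0.0463), and likewise after scaling to the 75th percentile (1.35, limma adjusted p = 0.0369), with dim probe sets left out (1.15, limma adjusted p = 0.0372) and with array weights (0.99, limma adjusted p = 0.0419). On the other Sox10 probe sets the groups overlapped, and differences were 0.31 on 1424985_a_at (SE 0.30, limma adjusted p = 0.50) and 0.12 on 1425369_a_at (SE 0.18, limma adjusted p = 0.669).

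Egr2, the zinc finger regulator of myelination, is also an immediate early gene of stimulated immune cells. On probe set 1427683_at it had log2 signals of 8.89, 10.10, 9.19 and 8.26 in metastases, against 11.06, 11.12, 11.17 and 11.19 in primary tumours. The primary tumours were nearly equal and all lay above the metastases, among which mouse 2 was highest. The difference was -2.02 (SE 0.34, limma adjusted p = 0.00535), a 4.07-fold fall in 4 of 4 mice, and the call was lost without mouse 3 (-2.04, limma adjusted p = 0.052).

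Egr2 on probe set 1427682_a_at had 8.47, 9.05, 9.21 and 8.75 in metastases, against 9.51, 9.86, 9.47 and 10.06 in primary tumours. The groups were apart by a narrow margin, and the difference was -0.85 (SE 0.21, limma adjusted p = 0.0234). This call was lost after quantile normalization (-0.51, limma adjusted p = 0.222), after scaling to the 75th percentile (-0.65, limma adjusted p = 0.0841) and with array weights (-0.86, limma adjusted p = 0.0535). It was also lost without mouse 1, 2, 3 or 4 (-0.79, -0.87, -1.05 and -0.70, limma adjusted p from 0.0509 to 0.123) and without the primary tumour of mouse 2 or 4 (-0.81 and -0.74, limma adjusted p = 0.0686 and 0.0743).

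Fabp7, the brain-type fatty acid binding protein of satellite glia and immature glia, was high in the metastasis of 1 animal. Its log2 signals on probe set 1450779_at were 9.55, 5.76, 6.41 and 5.85 in metastases, against 4.64, 5.73, 5.06 and 4.81 in primary tumours. The metastasis of mouse 1 lay more than 3 log2 units above the others, while in mouse 2 both tumours were about equal, so that the groups were apart by a narrow margin. The difference was 1.83 (SE 0.78, limma adjusted p = 0.134), and it was 0.95 without the metastasis of mouse 1 (limma adjusted p = 0.0505) and 0.81 without both arrays of mouse 1 (limma adjusted p = 0.110).

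Gfap, the intermediate filament of astrocytes and of non-myelinating Schwann cells, and Gjc3, the connexin (Cx29) of myelinating Schwann cells, lay near or under the array median. On its brightest probe set, 1426508_at, Gfap had log2 signals of 5.21, 5.14, 5.63 and 5.93 in metastases, against 5.29, 5.29, 5.22 and 5.23 in primary tumours. The groups overlapped, with the metastases of mice 3 and 4 above every primary tumour and those of mice 1 and 2 below them. The 3 Gfap probe sets had differences of 0.22, 0.41 and 0.24 (SE 0.19, 0.20 and 0.12, limma adjusted p from 0.177 to 0.437). Probe set 1426509_s_at passed without the metastasis of mouse 1 (0.58, limma adjusted p = 0.0304).

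Gjc3 had log2 signals of 4.11, 4.02, 4.06 and 4.30 in metastases on probe set 1422042_at, against 4.09, 4.09, 3.99 and 4.06 in primary tumours, with a difference of 0.07 (SE 0.12, limma adjusted p = 0.714). Metastases and primary tumours overlapped on both Gjc3 probe sets, and all of their values lay under the array median. On 1445523_at the difference was 0.36 (SE 0.15, limma adjusted p = 0.123), and this passed without the metastasis of mouse 1 (0.47, limma adjusted p = 0.0347).

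**Figure D2:**
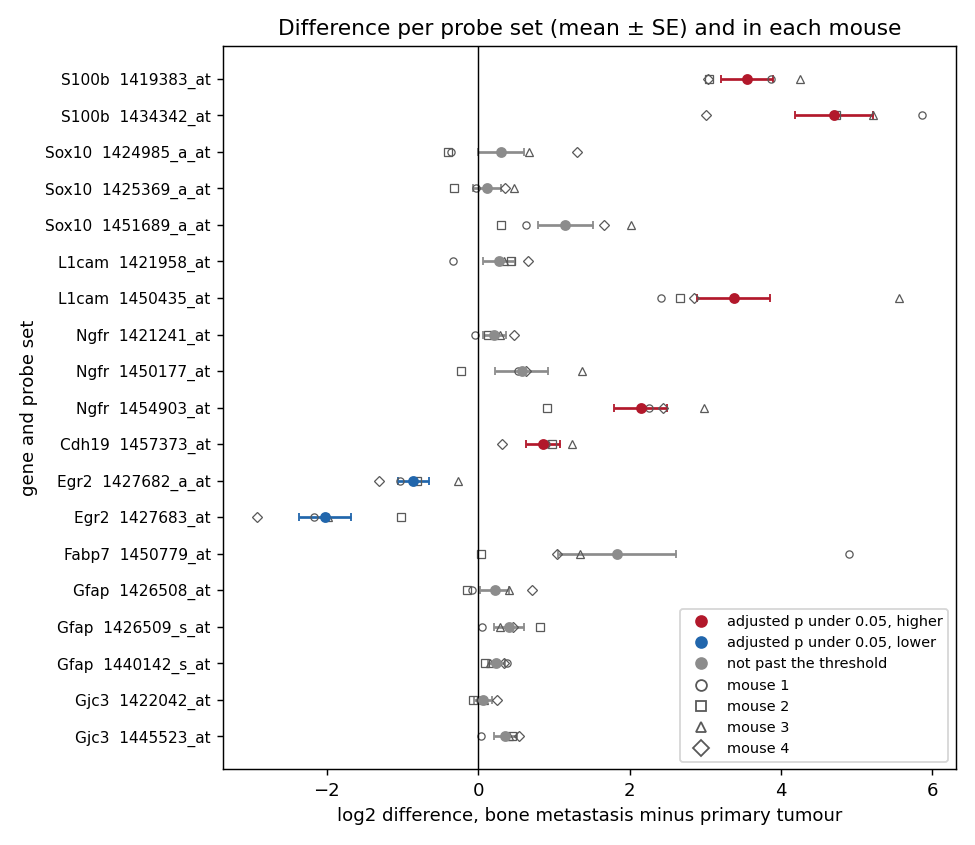
Difference in log2 signal, bone metastasis minus primary tumour, for each of the 19 probe sets. Filled points with bars are means with the SE from limma (n = 4 mice), coloured by call, and open markers are the differences within each mouse. S100b, L1cam 1450435_at and Ngfr 1454903_at stand between 2.14 and 4.70, and Egr2 1427683_at at -2.02.

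The size of the difference was not always the same on the probe sets of a gene. The 13 pairs of probe sets within a gene were compared by the difference of their log2 signals on each array, a comparison added after the values were seen. In 6 of the 13 pairs the groups did not overlap (exact permutation p = 0.0286 each, the smallest possible, adjusted p = 0.0619). These were the pair of Egr2, that of L1cam and, for Ngfr and Sox10, each pair that held the brightest probe set. L1cam 1450435_at exceeded 1421958_at by 3.10 in its difference, Ngfr 1454903_at exceeded 1450177_at by 1.57, and Sox10 1451689_a_at exceeded 1424985_a_at by 0.85. Those of S100b differed by -1.15 (1419383_at minus 1434342_at, exact permutation p = 0.0857, adjusted p = 0.139). None passed after adjustment over the 13 pairs, which 6 pairs at the smallest possible p could not do. Pairs within other genes were not compared, so no share over all genes stands beside the 6 of 13. The dimmer probe sets of L1cam and Ngfr lay under the array median on nearly all arrays, so their pairs largely repeat the call of the brightest probe set. The positions of the probe sets in their transcripts were not used here.

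The called genes also differed in how they varied between mice. In mice 1 to 4 the difference within a mouse was 3.87, 3.04, 4.25 and 3.03 for S100b 1419383_at. For L1cam 1450435_at it was 2.42, 2.67, 5.56 and 2.85. For Ngfr 1454903_at it was 2.26, 0.91, 2.98 and 2.44. In each of these 3 mouse 3 had the largest difference, and mice 2, 4 and 1 had the smallest ones in turn for Ngfr, S100b and L1cam. Sox10 1451689_a_at had 0.63, 0.30, 2.02 and 1.66, so that mice 3 and 4 were highest. Their metastases also had the larger actin drops, 5.72 and 6.18, against 4.85 and 4.55 in the metastases of mice 1 and 2. S100b 1434342_at and Cdh19 were lowest in the metastasis of mouse 4, which had the largest actin drop. The metastases varied more than the primary tumours on 18 of the 19 probe sets, by SD. This was not particular to the members. Over all probe sets tested, limma array weights, which are lower for more variable arrays, were 0.24 to 0.66 in metastases and 1.51 to 3.49 in primary tumours. On mice 1 and 2 alone, an alternative chosen after the data were seen, none of the 34945 probe sets passed the threshold in limma. At an unadjusted p under 0.05, 6780 of them passed, with 5 member probe sets higher and 2 lower.

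**Figure D3:**
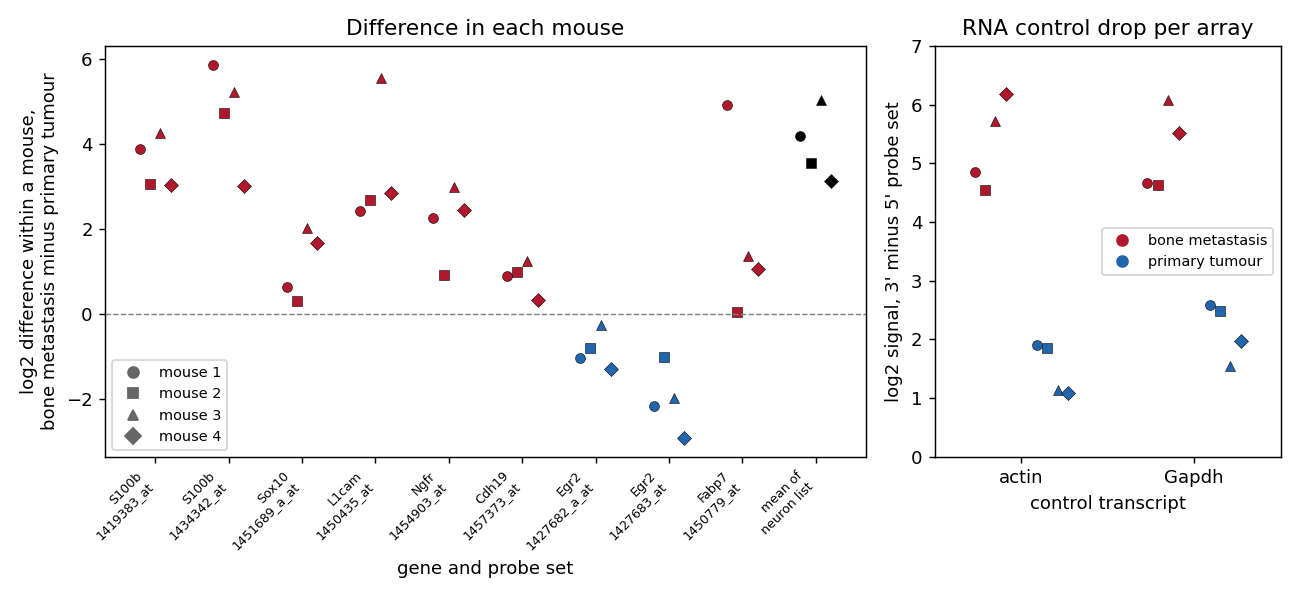
Left, log2 difference within each mouse, bone metastasis minus primary tumour, for the called probe sets, the brightest of Sox10, Fabp7 and the mean of the 18 neuron markers (red where the mean is higher, blue where lower, black for neurons). Right, 3' minus 5' log2 signal of the actin and Gapdh controls on each array, bone metastasis in red and primary tumour in blue, with marker shapes for the mice. Fabp7 in mouse 1 lies at 4.90, away from 0.04 to 1.35 in the others, and the actin drop is at least 4.55 on every metastasis array and at most 1.90 on every primary array.

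Other genes of peripheral glia were set beside these, each by its brightest probe set, where 21.9% of all genes passed, 9.93% higher and 12.0% lower. Of 10 myelin genes, 1 was higher and 0 were lower, with a median difference of 0.16. It was Cnp, a phosphodiesterase of myelin-forming cells that other cells also make, with 12.28 ± 0.54 in metastases and 9.34 ± 0.49 in primary tumours (log2, SD, n = 4 each) and a difference of 2.94 (SE 0.33, limma adjusted p = 0.00117). Its other probe sets, 1418980_a_at and 1449296_a_at, had 0.62 and -0.19 and were not called. Pmp2, Cldn19, Gjb1 and Ugt8a, myelin genes of the same list, lay under the array median on every array.

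Of 15 regulators and receptors of the Schwann lineage, 1 was higher and 2 were lower, with a median of 0.16. Ncam1, the neural cell adhesion molecule of neurons and non-myelinating Schwann cells, had 7.49 ± 0.48 in metastases and 5.39 ± 0.21 in primary tumours (log2, SD, n = 4 each, difference 2.10, SE 0.24, limma adjusted p = 0.00136). Of its other probe sets only 1426865_a_at was called (1.73, limma adjusted p = 0.0412). The rest had differences of 0.17 to 0.46 and were not called. Adgrg6, the adhesion receptor through which Schwann cells start to myelinate, was lower by a difference of -2.37 (SE 0.20, limma adjusted p = 0.000409). Nrg1, the axonal growth factor for Schwann cells, had a difference of -0.67 (SE 0.15, limma adjusted p = 0.0161) and lay under the array median on all arrays but the primary tumour of mouse 4. Of 5 further satellite glia genes, 1 was lower and 0 were higher. This was Apoe, the apolipoprotein that macrophages also make, at -2.60 (SE 0.35, limma adjusted p = 0.00222).

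Neuronal markers moved with S100b, L1cam and Ngfr, and in every mouse. All 18 neuron genes measured were higher, with a median difference of 3.84, and their mean log2 signal was 7.81 to 9.68 on metastasis arrays and 4.66 to 4.74 on primary arrays. Nefl and Nefh, subunits of the neurofilaments of large axons, had differences of 8.05 (SE 0.31, limma adjusted p = 7.15e-05) and 4.41 (SE 0.25, limma adjusted p = 0.00013). Stmn3, a microtubule regulator, had 6.41 (SE 0.41, limma adjusted p = 0.000194), and Pirt, a channel regulator of sensory neurons, had 6.17 (SE 0.50, limma adjusted p = 0.000397). The other probe sets of Nefl, Stmn3 and Pirt were also called higher, with smaller differences of 5.57, 3.48 and 3.52. On the primary arrays 10 of the 18, Nefl and Pirt among them, lay under the array median throughout, so that their differences are not exact. Within mice 1 to 4 the mean of the list differed by 4.19, 3.56, 5.02 and 3.12. It was largest in mouse 3, as were S100b 1419383_at, L1cam 1450435_at and Ngfr 1454903_at, whereas S100b 1434342_at was largest in mouse 1, and the order of the other mice differed between these probe sets. The part of neuronal RNA in the signals of L1cam, Ngfr and S100b was not tested.

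**Figure D4:**
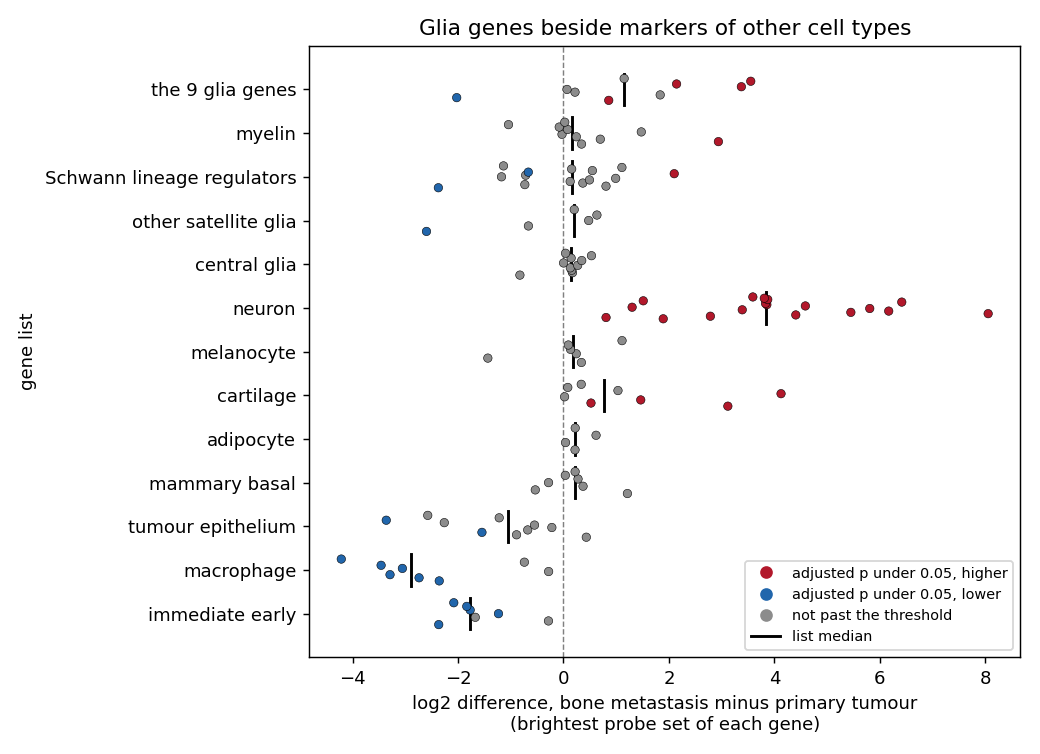
Log2 difference, bone metastasis minus primary tumour, of each gene by its brightest probe set, for the 9 glia genes and 12 other lists. Points are genes, coloured by call, and black bars are list medians. All 18 neuron genes lie above 0 with a median of 3.84, while the medians of the myelin, Schwann lineage and central glia lists lie at 0.16, 0.16 and 0.15.

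Markers of other cells that can hold these transcripts were also examined. Of 10 genes of central glia, 0 passed in either direction, by their brightest probe sets, with a median of 0.15, and Aqp4, Gjb6, Mog, Olig1, Olig2 and Cldn11 lay under the array median on every array. Their mean log2 signal was 4.40 to 4.80 in metastases and 4.35 to 4.59 in primary tumours. Mobp, a myelin protein of oligodendrocytes, had 0.27 on its brightest probe set (limma adjusted p = 0.398), but 3.84 on probe set 1433785_at (SE 0.90, limma adjusted p = 0.020). Aldh1l1, the second brightest gene of the list and an enzyme of astrocytes, had -0.83 (limma adjusted p = 0.0971).

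Cartilage genes, which stand for a second source of S100b, were higher in 4 of 8 cases and lower in 0, with a mean log2 signal of 5.66 to 6.57 in metastases and 4.86 to 4.92 in primary tumours. Comp and Acan, of the cartilage matrix, had differences of 4.13 (SE 0.40, limma adjusted p = 0.000798) and 3.12 (SE 0.74, limma adjusted p = 0.0199), and the collagens Col2a1 and Col11a2 had 1.47 and 0.52. Col11a2 lay under the array median on all arrays and Col2a1 on all primary arrays, so that the differences of these collagens are not exact. The part of cartilage RNA in the S100b signal was not tested. Of 4 adipocyte genes, 0 passed in either direction, and Adipoq, Lep and Cidec, which define the cell type, lay under the array median on all arrays, beside Fabp4 at 0.62 (limma adjusted p = 0.296). Their mean was 5.24 to 5.75 in metastases and 5.09 to 5.58 in primary tumours.

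Markers of other cells that make Sox10 did not pass in either direction. Of 6 melanocyte genes 0 passed, with means of 4.95 to 5.59 in metastases and 4.91 to 5.33 in primary tumours. Tyr, Dct and Mlana were under the array median throughout, and Pmel and Mitf had 0.13 and -1.43. Tyrp1 had 1.11 (limma adjusted p = 0.116), higher in 4 of 4 mice with groups that did not overlap. It lay above the array median only in the metastasis of mouse 3, at 6.66. Of 7 mammary basal genes 0 passed either, with means of 5.73 to 6.24 in metastases and 5.56 to 5.91 in primary tumours, and Acta2 and Krt14 had 1.21 and -0.53.

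Most of the genes examined that share cells with Egr2 fell beside it. Of 8 macrophage genes, 6 were lower and 0 were higher, with means of 8.51 to 10.15 in metastases and 11.30 to 12.18 in primary tumours. Adgre1, a surface receptor of macrophages, had -2.36, the complement subunits C1qa and C1qc had -3.29 and -3.05, and Aif1 had -2.74. The complement subunit C1qb and Csf1r had -0.28 and -0.74 and did not pass (limma adjusted p = 0.705 and 0.124). Of 7 other immediate early genes, 5 were lower and 0 were higher, with means of 9.24 to 10.71 in metastases and 11.19 to 11.49 in primary tumours. Atf3, Junb, Ier2 and Fosb, transcription factors or regulators of the early response, had -2.37, -2.08, -1.83 and -1.77. Egr1 and Egr3 had -0.28 and -1.67 and did not pass (limma adjusted p = 0.284 and 0.179). In the metastases Egr2 1427683_at, the macrophage list and the immediate early list were each highest in mouse 2, whereas Egr2 1427682_a_at was highest in mouse 3. The part of these cells or of this response in the fall of Egr2 was not tested.

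Genes with the most similar profiles were found by the root mean square difference between log2 profiles over the 8 arrays, each centred on its own mean, which measures both the gap between the groups and the order of arrays. S100b (1419383_at) was closest to Tesc, Rufy3 and the peripheral neuron filament gene Prph, at 0.205, 0.241 and 0.267, beside a root mean square spread of S100b itself of 1.84. L1cam was closest to Ldhb, Fxyd2 and the neuronal tubulin Tubb2b, at 0.338, 0.345 and 0.377. For Ngfr they were Prkaca, Egfl8 and Tle1, at 0.187, 0.197 and 0.220. For Egr2 they were Chpt1, the dendritic cell surface gene Cd83 and Rnf111, at 0.143, 0.159 and 0.195. Cdh19 was closest to Irf2, Entpd2 and Paqr9, at 0.0641, 0.132 and 0.158, beside a spread of 0.518.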

How the data were processed

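The deposited values were log2 signals of 45101 probe sets on 8 one-colour arrays, made by the authors with RMA per the submitters' processing notes. The sources used here give neither its version, nor which arrays were normalized together, nor any later step. No per-sample column was unused and no value was missing. By the platform annotation 34945 probe sets carried a single symbol and were tested. Not tested were 932 with several symbols, 9160 with none listed and 64 controls. The identifiers of 34741 were found in the RefSeq table of GRCm38.p6, which updated 0 symbols.

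All 34945 were compared, bone metastasis minus primary tumour, two-sided, with lmFit and eBayes of limma 3.58.1 in R 4.3.3, with no filter, no block and Benjamini-Hochberg adjustment. The p-values measure the spread between 4 mice. Python 3.11.15, numpy 2.4.6, pandas 2.3.3 and matplotlib 3.10.9 were used, and the fit was tested on simulated data. Replicate numbers stand for mice per the series' design text, so the tumours are paired. The main limma fit and the exact permutation tests did not use this pairing. Deviations from the group means correlated at 0.16, 0.00, 0.03 and -0.10 within mice 1 to 4.

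The members, the lists and the tests were chosen with earlier results of these data known. Named were all members. Of every other list, up to 4 genes past the threshold with 1 direction in all 4 mice were named, by adjusted p, or the 2 brightest where none passed. Further genes of some lists are given beside these. Of the profiles, the 3 closest to each called member were named. Alternatives were another normalization, a filter on dim probe sets, other sets of probe sets, a mouse block, array weights, a variance trend and each array or mouse left out. Promoter sequences are from RefSeq.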

Additional observations from a re-analysis of the deposited data

How the results depend on the processing

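With the replicate block of the mouse, 5 member probe sets were higher and 2 lower, as without it, 5757 of all probe sets were called in place of 7214, and no member call changed. The counts of all probe sets called were 3975 and 3912 with 1 test per gene (brightest or mean probe set, fewer features), and 2319 to 8439 with an array or mouse left out, lowest without mouse 3 and also far fewer without mouse 4 (3336) or the primary tumour of mouse 2, 3 or 4 (4599, 4040 and 3803). Leaving these out gave 4 to 8 member probe sets higher, 8 without the metastasis of mouse 1, and 0 to 2 lower, 0 without mouse 3, where limma gave 2 at an unadjusted p under 0.05. Member probe sets lower were 1 after quantile normalization, scaling to the 75th percentile, array weights and either test per gene, where Egr2 counts once. On mice 1 and 2 alone limma called 0 probe sets and 0 members, and on mice 3 and 4 alone it called 6 members higher and 1 lower. Without the metastases of mice 1 and 3, where keratins were low, 5 were higher and 1 lower. These 3 alternatives were chosen after the data were seen, and the cause was not tested. The median difference of all probe sets shifted by 0.20 under 75th-percentile scaling, and the share of calls that were higher was 55.5% in place of 42.2%. The differences of S100b, L1cam 1450435_at and Ngfr 1454903_at kept their call under every alternative that tested these probe sets except mice 1 and 2 alone. With the mean of all probe sets of a gene in their place, the difference was 1.82 for L1cam and 0.98 for Ngfr, against 3.37 and 2.14 for those probe sets. The actin and Gapdh differences ran from 3.41 to 4.21 and from 2.58 to 3.40 with a mouse left out. No array of any group stood out by Dixon's test in 42 groups of 4 examined. Signals under the array median in primary tumours limit the folds of S100b 1434342_at, Cdh19, Gjc3 and the dimmer probe sets of Gfap, L1cam and Ngfr, and Sox10 1425369_a_at.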
